A study of Homo sapiens with 8 samples.

Results

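The hepatocyte transcription factors described here are 8 genes, HNF4A, FOXA1, FOXA2, FOXA3, CEBPA, NR1H4, ONECUT1 and PROX1, taken by name from the authors' table of m6A differences, which names 11993 genes over both cell lines. HUH7 and PLC/PRF/5 are human lines established from hepatocellular carcinoma. For each line, 4 libraries were made: an m6A immunoprecipitate and an input library of parental cells, and both again from CSTF2-knockout cells made by CRISPR-Cas9 editing. The CSTF2 protein belongs to the cleavage stimulation factor and acts in mRNA 3′ end formation. With 1 library in each of the 8 groups, there were no replicates and no test between genotypes was possible. Whether the knockout cells were a clone or a pool is not given in the sources used here.

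Hepatocyte identity rests on a small set of DNA-binding proteins that bind each other's genes as well as those of plasma proteins and metabolic enzymes. HNF4A is a nuclear receptor that activates a broad set of liver genes. FOXA proteins open chromatin ahead of other factors, CEBPA drives metabolic genes, and NR1H4 (FXR) is the bile acid receptor. ONECUT1 (HNF6) and PROX1 act in liver development, and PROX1 also restrains nuclear receptor activity. N6-methyladenosine (m6A) is a base modification of mRNA that is read by proteins controlling splicing, translation and decay, and transcripts of regulatory genes often carry it.

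The table gave 1 log2 fold change per gene for HUH7 and 1 per peak for PLC/PRF/5. Neither the headers nor the labels say which genotype is the numerator or how the immunoprecipitate was set against its input. Signs are therefore given as deposited and show no direction toward the knockout. In the authors' deposited table CSTF2 had 1 peak in PLC/PRF/5, at -0.50, and no row in HUH7, which is no check of the knockout because the values are not expression levels. Of 8 markers fixed for hepatocytes (ALB, APOA1, APOB, TTR, AFP, TF, SERPINA1 and FGB), 5 were listed in HUH7 and 6 in PLC/PRF/5. Of all protein-coding RefSeq genes, 51.0% were listed in HUH7 and 24.1% in PLC/PRF/5. TTR and AFP were listed in neither line and ALB only in PLC/PRF/5. A listing shows that a value was given, not how much RNA was present. HUH7 rows follow the genome, with 99.5% of neighbouring rows on 1 chromosome, whereas this share is 5.64% in PLC/PRF/5.

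The table names genes and not positions, so a value cannot be placed on a transcript. This matters most for HNF4A, which has 10 curated RefSeq transcripts and is read from separate starts, 45540 bases apart on chromosome 20. RefSeq (GRCh38.p14) windows were found for 6 of the 8 genes, 7 windows in all, with 2 for HNF4A. The 210 bases before each HNF4A start are shown because its single value in each line could come from either transcript class and because their letters hold sites of the kind that ONECUT1 binds. Capitals mark matches, on either strand, to the ONECUT core ATTGAT. Both stretches are given on the plus strand.
HNF4A upstream start, chr20:44355489-44355698: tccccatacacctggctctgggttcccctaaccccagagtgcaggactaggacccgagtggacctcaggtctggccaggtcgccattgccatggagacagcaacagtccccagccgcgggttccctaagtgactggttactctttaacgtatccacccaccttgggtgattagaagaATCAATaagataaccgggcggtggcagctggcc
HNF4A downstream start, chr20:44401029-44401238: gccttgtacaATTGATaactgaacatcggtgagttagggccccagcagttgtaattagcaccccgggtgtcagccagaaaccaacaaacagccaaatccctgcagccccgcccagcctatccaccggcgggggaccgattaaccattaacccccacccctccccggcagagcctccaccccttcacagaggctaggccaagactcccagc

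Within the 250 bases searched, the upstream HNF4A start had 1 ONECUT match, 33 bases before it. The downstream start had 1 ONECUT match at 200 bases. An ONECUT match was present in 5.58% of all 35116 RefSeq windows of this length. FOXA1 had 1 FOXA match (TGTTTNC, present in 15.5% of windows). The nuclear receptor core AGGTCA, present in 12.1% of windows, matched once each for FOXA3 and NR1H4. The NR1H4 window lies before a start at base 100503360, which is inside the span of the gene. The letters CAAAGTCCA (HNF4) and TTGCNNAA (C/EBP) were in none of the 7 windows, against 0.325% and 9.05% of all windows. These matches are descriptions of sequence and were not measured in this study.

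The first 50 transcribed bases were the only transcript sequence at hand. The m6A-type letters GGAC followed by A, C or T, searched on the transcript strand, were found in 14.5% of all windows and in 1 of the 7 windows of these genes. That match is at base 2 of FOXA3, on the plus strand, and is shown with the match in capitals. It is the only match to the letters searched, and other letters that can carry m6A were not searched.
FOXA3, chr19:45864326-45864355: gGGACAgccgtaccccgggcggtcggacgg

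In HUH7 all 8 factors were listed, and all 8 values lay between -1 and 1. A total of 6 were positive and 2 negative, between -0.12 for FOXA2 and 0.95 for ONECUT1 in the authors' deposited table. None reached an absolute log2 fold change of 1, a size that 36.9% of the 10447 listed genes reached. The median of the 8 was 0.33, beside 0.20 for the whole column, and their SD over genes was 0.40. Positive values made up 60.8% of the column, against which 6 of 8 is to be read. An absolute value of 0.5 was reached by 3 of the 8 and by 57.7% of the column. Of the 8, 7 lay between the column's quartiles (-0.36 and 0.87) and ONECUT1 just above the upper one. Listing itself was not general: 51.0% of 20056 protein-coding RefSeq genes had a HUH7 row. It was not particular to these 8 either, with rows for 56 of 63 other liver transcription factors and 22 of 23 nuclear receptor cofactors.

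**Figure D1:**
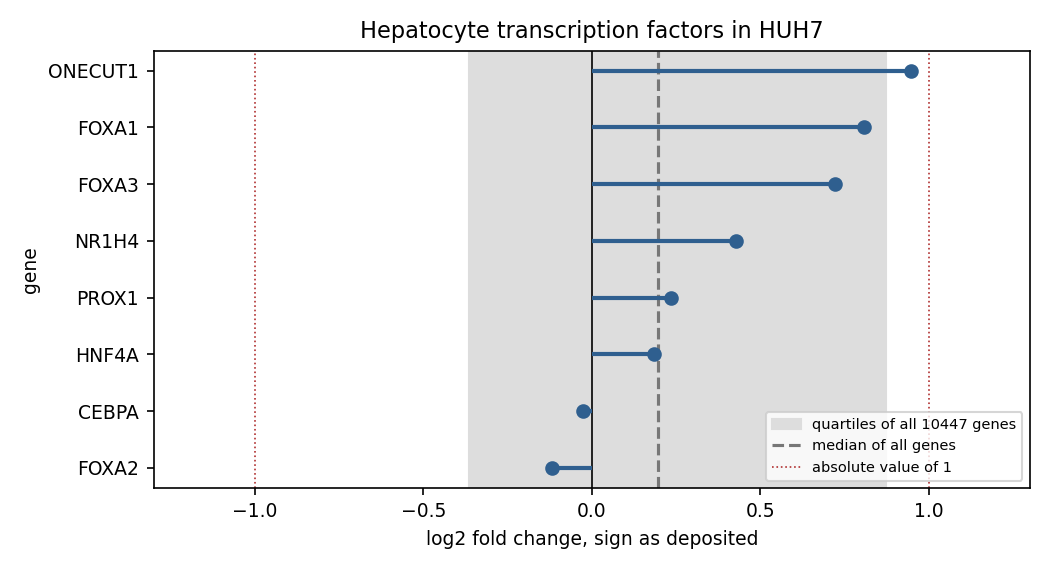
Log2 fold change of each of the 8 hepatocyte transcription factor genes in HUH7 (x axis, log2 units, sign as deposited; 1 value per gene, no replicate), with the quartiles and median of all 10447 genes. All 8 points lie between -1 and 1, from FOXA2 at -0.12 to ONECUT1 at 0.95, and 7 lie inside the grey band.

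HNF4A, at the head of the hepatocyte network (chromosome 20, 44355699 to 44434596, GRCh38), had a HUH7 value of 0.18 in the authors' deposited table. Read as a ratio, this is 1.14 between the genotypes, and 49.4% of listed genes had a lower value, so HNF4A sat at the middle of the column. The gene overlaps the antisense lncRNA gene HNF4A-AS1, which was listed in neither line.

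The pioneer factor FOXA1 (chromosome 14, 37589552 to 37595249) had 0.81 in HUH7 in the authors' deposited table, a ratio of 1.75. FOXA3 (chromosome 19, 45864326 to 45873797) had 0.72 in the authors' deposited table, a ratio of 1.65. FOXA2 (chromosome 20, 22580998 to 22585490) had -0.12 in the authors' deposited table, a ratio of 1.09 in the opposite sense. FOXA1 and FOXA3 thus lay near the upper quartile, above 73.5% and 71.2% of genes, and FOXA2 above 33.2%. With 1 value each and no replicate, the order of the 3 paralogues has no error attached to it.

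CEBPA (chromosome 19, 33299934 to 33302534) was the factor closest to 0 in HUH7, at -0.027 in the authors' deposited table. Only 2.94% of listed genes had a value nearer to 0. The other C/EBP genes also lay close to 0, with CEBPB at -0.26, CEBPG at -0.0055 and CEBPD at 0.017 in the authors' deposited table. None of these 4 genes reached 1 in size, which 36.9% of the column did, so most listed genes stayed below it too. CEBPG is a neighbour of CEBPA, with 71175 bases between the genes, and both values were near 0. Another gene of the neighbourhood, the receptor gene LRP3, had -9.27 in the authors' deposited table. That LRP3 number is a repeated one: 10 or more genes share it to 6 decimals. A repeated value was given to 12.6% of HUH7 genes and to 0 of the 8 factors.

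NR1H4, the bile acid receptor (chromosome 12, 100473866 to 100564414), had 0.43 in HUH7 in the authors' deposited table, above 60.9% of genes. ONECUT1 (chromosome 15, 52755053 to 52790336) had the highest value of the 8, 0.95 in the authors' deposited table, a ratio of 1.93. It was above 76.7% of genes, and 61.7% of genes were nearer to 0. Its paralogue ONECUT2 had 0.19 in the authors' deposited table. PROX1 (chromosome 1, 213983151 to 214041510) had 0.23 in the authors' deposited table, next to the column's median. NR1H4, ONECUT1 and PROX1 thus lay between the median and just above the upper quartile.

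In PLC/PRF/5, 5 of the 8 factors were listed, each with 1 peak. PROX1 had 12.03, ONECUT1 11.44 and HNF4A 10.94 in the authors' deposited table. NR1H4 had 2.54 and FOXA2 2.31 in the authors' deposited table. FOXA1, FOXA3 and CEBPA were absent, under their symbols and under every RefSeq synonym. Of protein-coding RefSeq genes 24.1% were listed in this line, so the listing of 5 of 8 is set against that share. Of other liver transcription factors 27 of 63 were listed, and of nuclear receptor cofactors 17 of 23. A single peak was the rule in PLC/PRF/5, for 60.5% of 5475 genes. The filter that decided which peaks were listed is not given in the sources used here, so the absence of a name is not a level of 0.

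All 5 peaks were positive and above 1, but so were most in this column. A positive median was found for 90.3% of genes and an absolute median of 1 or more for 89.0%. Of the 5 peaks, 3 were high and 2 low in the column, with 8.40 log2 units between HNF4A and NR1H4. Of all peaks 55.9% lay within that gap, and 5 single values without an error cannot show whether the factors form groups. The whole column ran evenly from -2.12 to 13.00, with quartiles at 1.72 and 9.19. PROX1, ONECUT1 and HNF4A lay above the upper quartile, higher than 93.9%, 89.9% and 86.8% of peaks. NR1H4 and FOXA2 were higher than 30.8% and 29.0% of peaks.

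**Figure D2:**
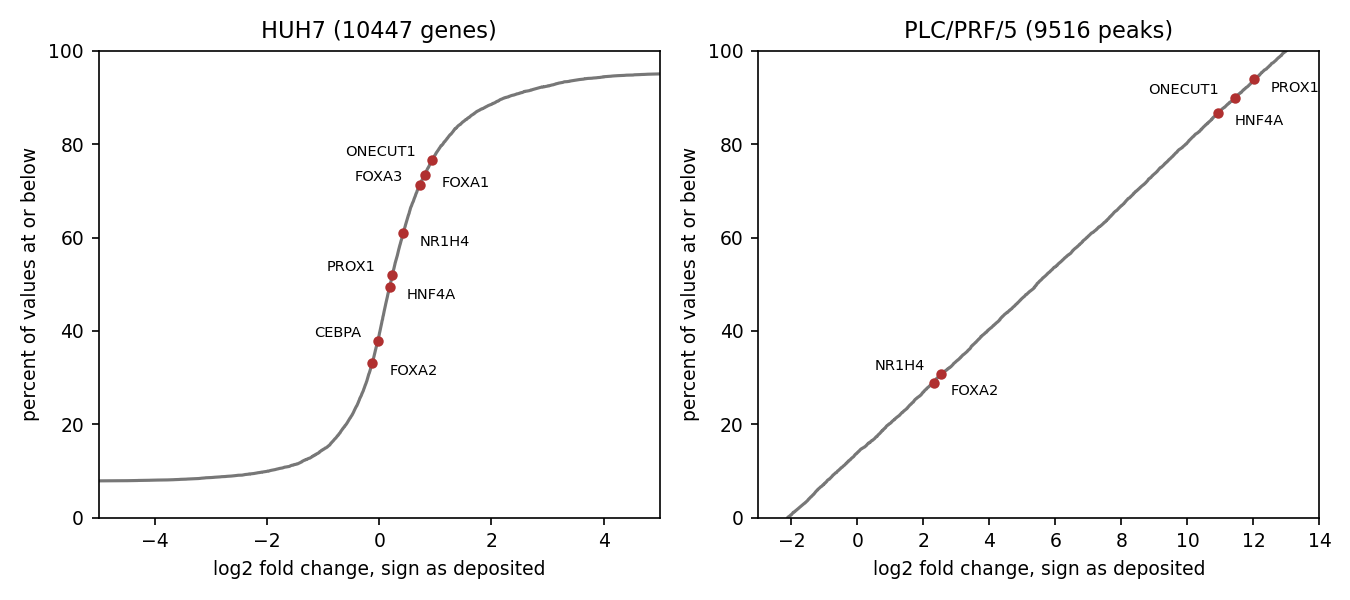
Cumulative percent of values (y axis) against log2 fold change (x axis, sign as deposited) for 10447 HUH7 genes and 9516 PLC/PRF/5 peaks, with the listed factors as red points; the HUH7 axis leaves out the far ends. In HUH7 the 8 factors crowd the steep middle of the curve, whereas in PLC/PRF/5 the curve is close to a straight line and the 5 factors sit at 2.31 and 2.54 and from 10.94 to 12.03.

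The lines gave the same factor very different sizes. In the authors' deposited table, HNF4A had 0.18 for HUH7 and 10.94 for PLC/PRF/5, and PROX1 0.23 and 12.03. ONECUT1 was highest of the 8 in HUH7 and second of the 5 in PLC/PRF/5. The scales of the columns differ, since their medians were 0.20 over genes and 5.44 over peaks, and how each was made is not given in the sources used here. Of the 5 factors listed in both lines, 4 had the same sign, beside 56.8% of the 3929 genes listed in both. FOXA2 was the exception: the authors' deposited table gave it -0.12 for HUH7 and 2.31 for PLC/PRF/5. The count depends on the zero of each column. Measured from each column's own median, 3 of 5 had the same sign. FOXA2 was then below the median in both lines, while HNF4A and NR1H4 had opposite signs.

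Peaks of genes from the same families covered nearly the whole PLC/PRF/5 range. In the authors' deposited table, the 6 peaks of ONECUT2, a close relative of ONECUT1, ran from -1.88 to 10.63. ONECUT1 and ONECUT2 together ran from -1.88 to 11.44. For NR5A2 (LRH-1), a nuclear receptor of bile acid and cholesterol metabolism, the authors' deposited table gave 5 peaks between 0.90 and 12.15. Forkhead genes had 9 peaks in 8 genes, from -1.68 to 11.75, and 2 of the 9 were negative. C/EBP genes other than CEBPA had 5 peaks in 3 genes, from 0.40 to 8.73, all positive. Over the column, 90.3% of genes had a positive median. The peaks of ONECUT2 alone thus spanned more than the 5 listed factors did.

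**Figure D3:**
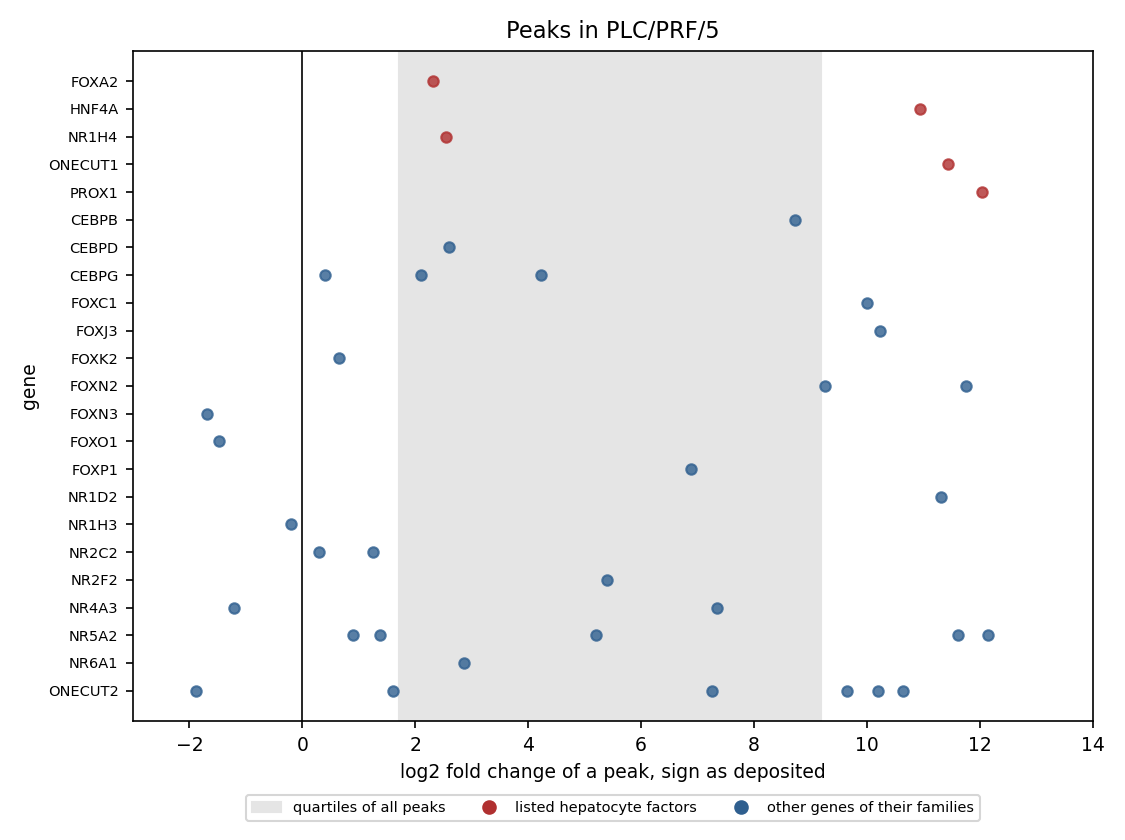
Log2 fold change of each PLC/PRF/5 peak (x axis, sign as deposited) for the 5 listed hepatocyte factors (red) and for other forkhead, C/EBP, ONECUT and nuclear receptor genes (blue), 1 row per gene; the grey band holds the middle of all 9516 peaks. The 6 peaks of ONECUT2 run from -1.88 to 10.63, and the 5 peaks of NR5A2 from 0.90 to 12.15.

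In HUH7, relatives of the factors were found on both sides of 0. Of 29 forkhead genes, 16 were positive and 13 negative, beside 60.8% positive in the column. An absolute value of 1 was reached by 14 of them (48.3%, beside 36.9% of the column), 7 with repeated values. Their unrepeated values ran from FOXC1 at -1.27 to FOXE1 at 3.13 in the authors' deposited table, while the 3 FOXA genes stayed below 1. Of 17 genes named as nuclear receptors of the NR series, 12 were positive and 5 reached 1 in size (29.4%, beside 36.9% of the column), 1 of them with a repeated value. The xenobiotic receptor gene NR1I2 (PXR) was the lowest, at -1.18, and the clock repressor gene NR1D2 (REV-ERB beta) the highest unrepeated one, at 2.89, in the authors' deposited table. NR1H4, at 0.43, was next to the median of this family, 0.42.

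Some genes beside or over the factors were listed as well. PROX1-AS1, a lncRNA gene that overlaps PROX1, had 2 peaks at 7.89 and 11.64 for PLC/PRF/5 in the authors' deposited table, and no HUH7 row. Where the genes overlap, reads of PROX1 and its antisense partner can be told apart only by strand, and the use of strand is not given in the sources used here. How far their exons overlap was not analysed here. LINC00261, a lncRNA gene 2356 bases from FOXA2, had 1 peak at 11.05 in the authors' deposited table, beside 2.31 for FOXA2. SYMPK, 1179 bases from FOXA3, encodes symplekin, a scaffold of the 3′ end processing machinery that binds CSTF2. It had 0.49 in HUH7 in the authors' deposited table, beside 0.72 for FOXA3, and no peak in PLC/PRF/5.

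Of 63 other liver transcription factors, 56 were listed in HUH7, 34 positive and 22 negative, beside 60.8% positive in the column. Their median was 0.16, beside 0.20 for the column. An absolute value of 1 was reached by 15 of the 56 (8 positive, 7 negative), or 26.8%, beside 36.9% of the column. NR1D2 (2.89), the nuclear factor I gene NFIB (-2.59) and the Krüppel-like gene KLF9 (2.16) led the unrepeated values by size in the authors' deposited table. In PLC/PRF/5 27 of the 63 were listed, with 55 peaks. NR1D2, NFIB and ZBTB20, a repressor of fetal liver genes, had an absolute value of 1 or more in both lines. In PLC/PRF/5 a median of that size was found for 89.0% of genes. NR1D2 was positive in both, at 2.89 and 11.30, and ZBTB20 had 1.19 and a median of 4.59, in the authors' deposited table. NFIB had -2.59 and a median of 2.05, so its signs differed.

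Of these other factors, ONECUT2 (0.19) and FOXO3 (0.16) were closest to HNF4A in HUH7 value in the authors' deposited table. NR1H3 (LXR alpha) and USF1, each at 0.42 in the authors' deposited table, were closest to NR1H4. NR1D1 (0.77) was closest to both FOXA1 and FOXA3, followed by FOXP1 (0.89) for FOXA1 and the carbohydrate-sensing MLXIPL (0.65) for FOXA3 in the authors' deposited table. NR2F1 and BHLHE40, both at -0.12 in the authors' deposited table, were closest to FOXA2. CEBPG and ZGPAT (-0.049) were closest to CEBPA, TEF (0.99) and NFIX (0.89) to ONECUT1, and RXRB (0.26) and FOXM1 (0.26) to PROX1 in the authors' deposited table. Likeness here is the absolute difference of 1 HUH7 value per gene.

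Cofactors that nuclear receptors such as HNF4A and NR1H4 recruit held values on both sides of 0 in HUH7. Of 23 listed by name, 22 had a HUH7 row, 12 positive and 10 negative, beside 60.8% positive in the column. Their median was 0.17, beside 0.20 for the column. In size, 3 of the 22 reached 1 (13.6%, beside 36.9% of the column), 2 of them with repeated values. The corepressor gene NRIP1 (1.01), the coactivator gene NCOA6 (0.97) and LCOR (0.88) led the unrepeated values by size in the authors' deposited table. NRIP1 also passed 1 in PLC/PRF/5, with a median of 9.49 over its peaks, where 89.0% of genes had a median of 1 or more in size.

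Genes of bile acid handling held values on both sides of the range of the factors. Of 37 bile acid genes, many of them targets of NR1H4 and HNF4A, 21 were listed in HUH7. Of these, 13 were positive and 8 negative, beside 60.8% positive in the column. Their median was 0.099, beside 0.20 for the column. An absolute value of 1 was reached by 9 of the 21 (4 positive, 5 negative), 42.9% beside 36.9% of the column. The export transporter gene ABCC3 (4.64), the acyl-CoA synthetase gene SLC27A2 (-3.12) and the reductase gene AKR1C4 (2.80) led the unrepeated values by size in the authors' deposited table. NR0B2 (SHP), the repressor that NR1H4 induces, was chosen after its value was seen and had 1.52 in HUH7 in the authors' deposited table, beside 0.43 for NR1H4. Other bile acid genes, also named with their values known, were lower. In the authors' deposited table ABCB11 had 0.43, SLC51B 0.28, FGF19 -0.59 and BAAT -1.15 in HUH7. A link between the values of NR1H4 and these genes was not tested. In PLC/PRF/5 5 bile acid genes were listed, with 8 peaks, all positive, where 90.3% of genes had a positive median. Both lines passed 1 for SCP2, at a repeated value of 11.24 in HUH7 and 2.71 in PLC/PRF/5, by the authors' deposited table. So did ABCC4, at -1.54 and 4.32 in the authors' deposited table. In PLC/PRF/5 89.0% of genes had a median of that size.

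Of 30 genes of gluconeogenesis, the urea cycle and amino acid breakdown, 12 were listed in HUH7. Of these, 8 were positive and 4 negative, beside 60.8% positive in the column. Their median was 0.33, beside 0.20 for the column. An absolute value of 1 was reached by 3 of the 12 (beside 36.9% of the column), 2 with repeated values. The glycogen phosphorylase gene PYGL (1.41), the tyrosine aminotransferase gene TAT (0.72) and the urea cycle gene ASL (0.66) led the unrepeated values by size in the authors' deposited table. PCK1, the gluconeogenic carboxykinase gene, passed 1 in both lines of the authors' deposited table, at a repeated -8.27 in HUH7 and at 6.51 in PLC/PRF/5. A PLC/PRF/5 median of 1 or more in size was found for 89.0% of genes.

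Markers of other liver cells were listed in part. Of 16 cholangiocyte and progenitor markers, 9 were listed in HUH7, with a median of -0.22 beside 0.20 for the column. An absolute value of 1 was reached by 1 of the 9 (11.1%, beside 36.9% of the column), PROM1 at 3.17 in the authors' deposited table. SPP1 followed, at -0.76 in the authors' deposited table. Of 20 endothelial, lymphatic, stellate and immune markers, 8 were listed in HUH7, with a median of 1.24 beside 0.20 for the column. Of the 8, 6 were at 1 or more in size (beside 36.9% of the column), 2 of them with repeated values, ACTA2 and CDH5. COL1A1 (3.97), STAB2 (-3.22) and PDGFRB (2.26) led the unrepeated values by size in the authors' deposited table. Of these 20, 2 were listed in PLC/PRF/5. All libraries came from the HUH7 and PLC/PRF/5 lines, so a listed marker is not a sign of other liver cells. The values are differences and no levels, so how strongly these genes were expressed is not known.

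**Figure D4:**
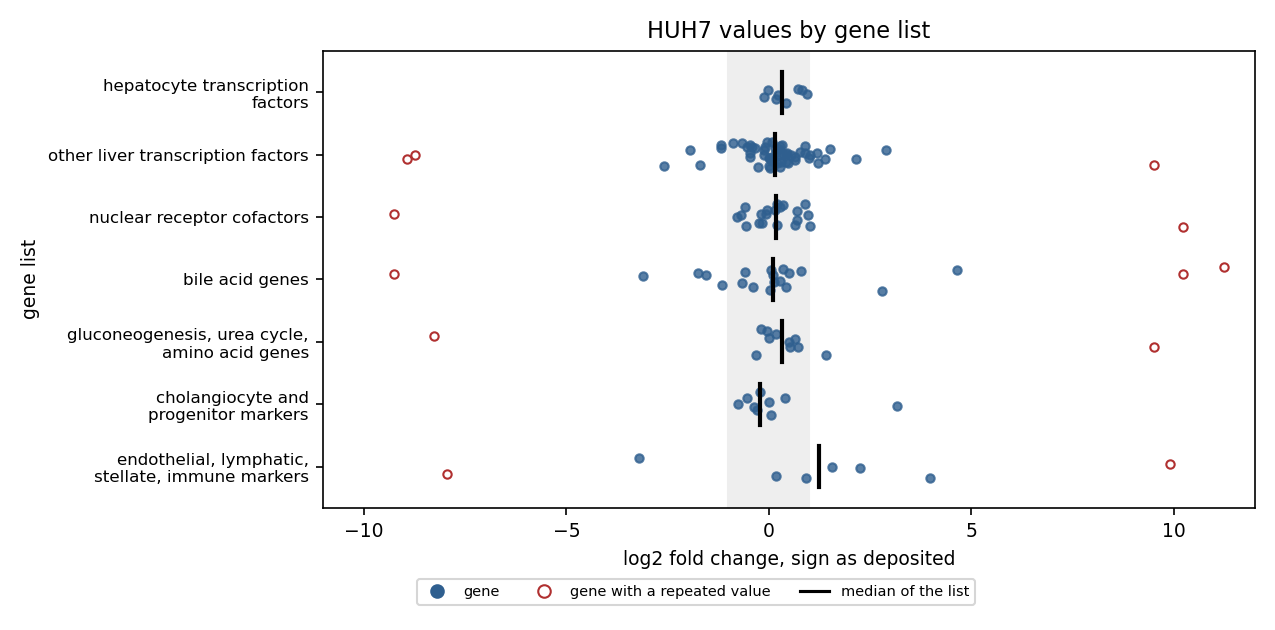
HUH7 log2 fold changes (x axis, sign as deposited) of the 8 hepatocyte transcription factors and of 6 further gene lists, 1 point per listed gene, with each list's median as a bar; open points are repeated values and the grey band spans -1 to 1. All 8 factors lie inside the band. Outside it lie 15 of 56 other liver transcription factors (26.8%) and 9 of 21 bile acid genes (42.9%), beside 36.9% of all 10447 genes.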

How the data were processed

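The values are the authors' deposited log2 fold changes, 1 column per cell line with gene names, per the file headers. FastQC 0.12.0 and build hg38 are named, per the submitters' processing notes. Aligner, peak caller, differential test and filters: not given in the sources used here. Depth is unknown, so no value carries a counting interval. The 8 genes and all lists were chosen with earlier results of these data known. Names were updated through RefSeq synonyms (148 in HUH7, 158 in PLC/PRF/5). A PLC/PRF/5 gene with several peaks was given their median. HUH7 values above 1 in size shared by 10 or more genes to 6 decimals were called repeated. No test was run, because each group held 1 library. HUH7 list medians and shares past 1 stand beside those of the whole column, both with repeated values included. Named were the 8 genes, the 3 largest unrepeated HUH7 values per list, genes at 1 or more in size in both lines (at most 6 per list), the 2 other liver factors closest to each of the 8 in HUH7, and the extremes of each gene family; some genes that this rule names are not reported here. Sequences are RefSeq windows of GRCh38.p14. The calculations used Python 3.11.15 and pandas 2.3.3, and were tested on simulated columns.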

Additional observations from a re-analysis of the deposited data

Results flagged for a closer look

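FOXA2 had opposite signs in the lines: the authors' deposited table gave -0.12 for HUH7 and 2.31 for PLC/PRF/5. Over the 3929 genes listed in both lines, 56.8% had the same sign, and 90.3% of PLC/PRF/5 genes had a positive median. Measured from each column's median, FOXA2 was below it in both lines, by -0.32 in HUH7 and -3.13 in PLC/PRF/5. Each line gave 1 value, so the difference was not tested.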

How the results depend on the processing

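Names as given gave the same counts of listed factors, and a minimum of 2 the same counts of factors past the minimum in both lines. Other summaries of the peaks and leaving out repeated values could not change a value, since each listed factor had 1 PLC/PRF/5 peak and none of the 8 had a repeated value, so they say nothing about stability. With a minimum of 0.5 in place of 1, 3 HUH7 factors passed (ONECUT1, FOXA1 and FOXA3), beside 57.7% of the column. The HUH7 median of the factors was 0.40 as a mean and 0.14 after the column median was subtracted. The PLC/PRF/5 median was 5.50 after subtraction of the column median. Measured from each column's median, 5 of 8 factors were positive in HUH7 and 3 of 5 in PLC/PRF/5, and 3 of 5 shared their sign between the lines, where 4 did as deposited. The count of positive HUH7 factors among values of 1 or more could not be made, since none reached 1. No paired analysis was possible because each group held 1 library and the values are the authors' comparisons. Depth is unknown, and no value can be given an error.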
